A study of Rattus norvegicus with 18 samples.

Results

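RNA for the subunits of ionotropic glutamate receptors, the ion channels that open when glutamate binds, was followed in rat cortex after cerebral ischemia. The members were 10 genes: Gria1, Gria2, Gria3 and Gria4 for AMPA receptors, Grin1, Grin2a, Grin2b and Grin2c for NMDA receptors, and Grik1 and Grik2 for kainate receptors. Every probe of the 1-colour array that carried one of these symbols, in the array file or through the accession it was designed for, was taken. That gave 14 probes for 10 genes, of 41012 probes on the array. All 14 were well above background on all 18 arrays, none was saturated, and all were among the 28634 probes tested.

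The rats were male Crl:CD(SD)BR, and brain cortex was sampled at 2 h or at 6 h. At each time there were 3 groups of 3 arrays: rats with occlusion of the middle cerebral artery (MCAO) given erythropoietin (EPO), rats with MCAO given saline, and sham-operated rats with no treatment. The labels name no genetic change, no age, no EPO dose and no side of the brain, and a sham group with saline or EPO was not analysed here. The labels number the replicates from 1 to 3 without saying that each is a separate rat, so p-values measure the spread between these samples, which may be partly technical.

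AMPA receptors carry most of the fast excitatory current between cortical neurons, and Gria2 encodes GluA2, the subunit whose edited form keeps calcium out of the channel. NMDA receptors need the GluN1 subunit made from Grin1 together with GluN2 subunits made from Grin2a, Grin2b or Grin2c, and they pass calcium when the membrane is depolarised. GluN2B is abundant in the young forebrain and gives slower currents than GluN2A, which becomes more abundant as the cortex matures. Kainate receptors built with Grik1 or Grik2 products act both at synapses and on transmitter release.

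All values below are log2 signals minus the 75th percentile of the same array, so that a value of 0 lies at that percentile, and differences are between group means on this log2 scale. They show change within a probe between arrays, and the level of 1 probe is not set against that of another. A probe is called changed where the adjusted p of limma's moderated test, over the 28634 probes, is under 0.05. The arrays lay on 5 slides scanned on 2 days. On 6 of the 18 arrays the signal of the spiked-in control RNAs climbed more steeply with their amount (slope 0.914 to 0.941) than on the other 12 (0.788 to 0.866), and 61.5% to 66.4% of probes were above background on the steep arrays against 68.6% to 80.6% on the flat ones. The steep arrays were 1 EPO and 1 saline array at 2 h, and 1 EPO, 2 saline and 1 sham array at 6 h, so no sham array at 2 h was steep. Every array of slide 5 was steep, and slide 5 alone was scanned on day 2. Slide, scan day and array class can therefore not be fully separated. With the groups accounted for, the steep arrays read 0.29 lower for the 10-spot Grin2a probe and 0.20 higher for Grin2b. They also read 0.16 higher for the 10-spot Grin1 probe, 0.24 lower for Grik1, 0.21 lower for Gria1 and 0.20 and 0.21 lower for the Gria4 probes. For the other probes steep minus flat lay between -0.039 (Gria3) and 0.13 (the 1-spot Grin1 probe).

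Both Gria2 probes were called lower at 6 h in both ischemic groups. At 6 h, 3 of 14 probes were called lower in saline-treated ischemic cortex than in sham cortex, both Gria2 probes and 1 of the 2 Grin1 probes, and none was called higher. Among all tested probes 11% were called in this comparison and 6.26% were called lower. Those calls were 1372 higher and 1792 lower, and with arrays centred on their median they were 1233 higher and 485 lower, with normexp background correction 1476 higher and 919 lower. At 2 h, 0 of 14 probes were called by limma (1 had an unadjusted p under 0.05), where 1.24% of all probes were called and 11.6% had an unadjusted p under 0.05. That probe was Grin2b, whose 3 saline arrays all lay above the 3 sham arrays. Between EPO and saline, 0 of 14 probes were called at 2 h (1 at an unadjusted p under 0.05) and 0 of 14 at 6 h (0 at an unadjusted p under 0.05), and limma called 0% of all probes at both times, with 1.33% at 2 h and 4.13% at 6 h at an unadjusted p under 0.05.

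**Figure D1:**
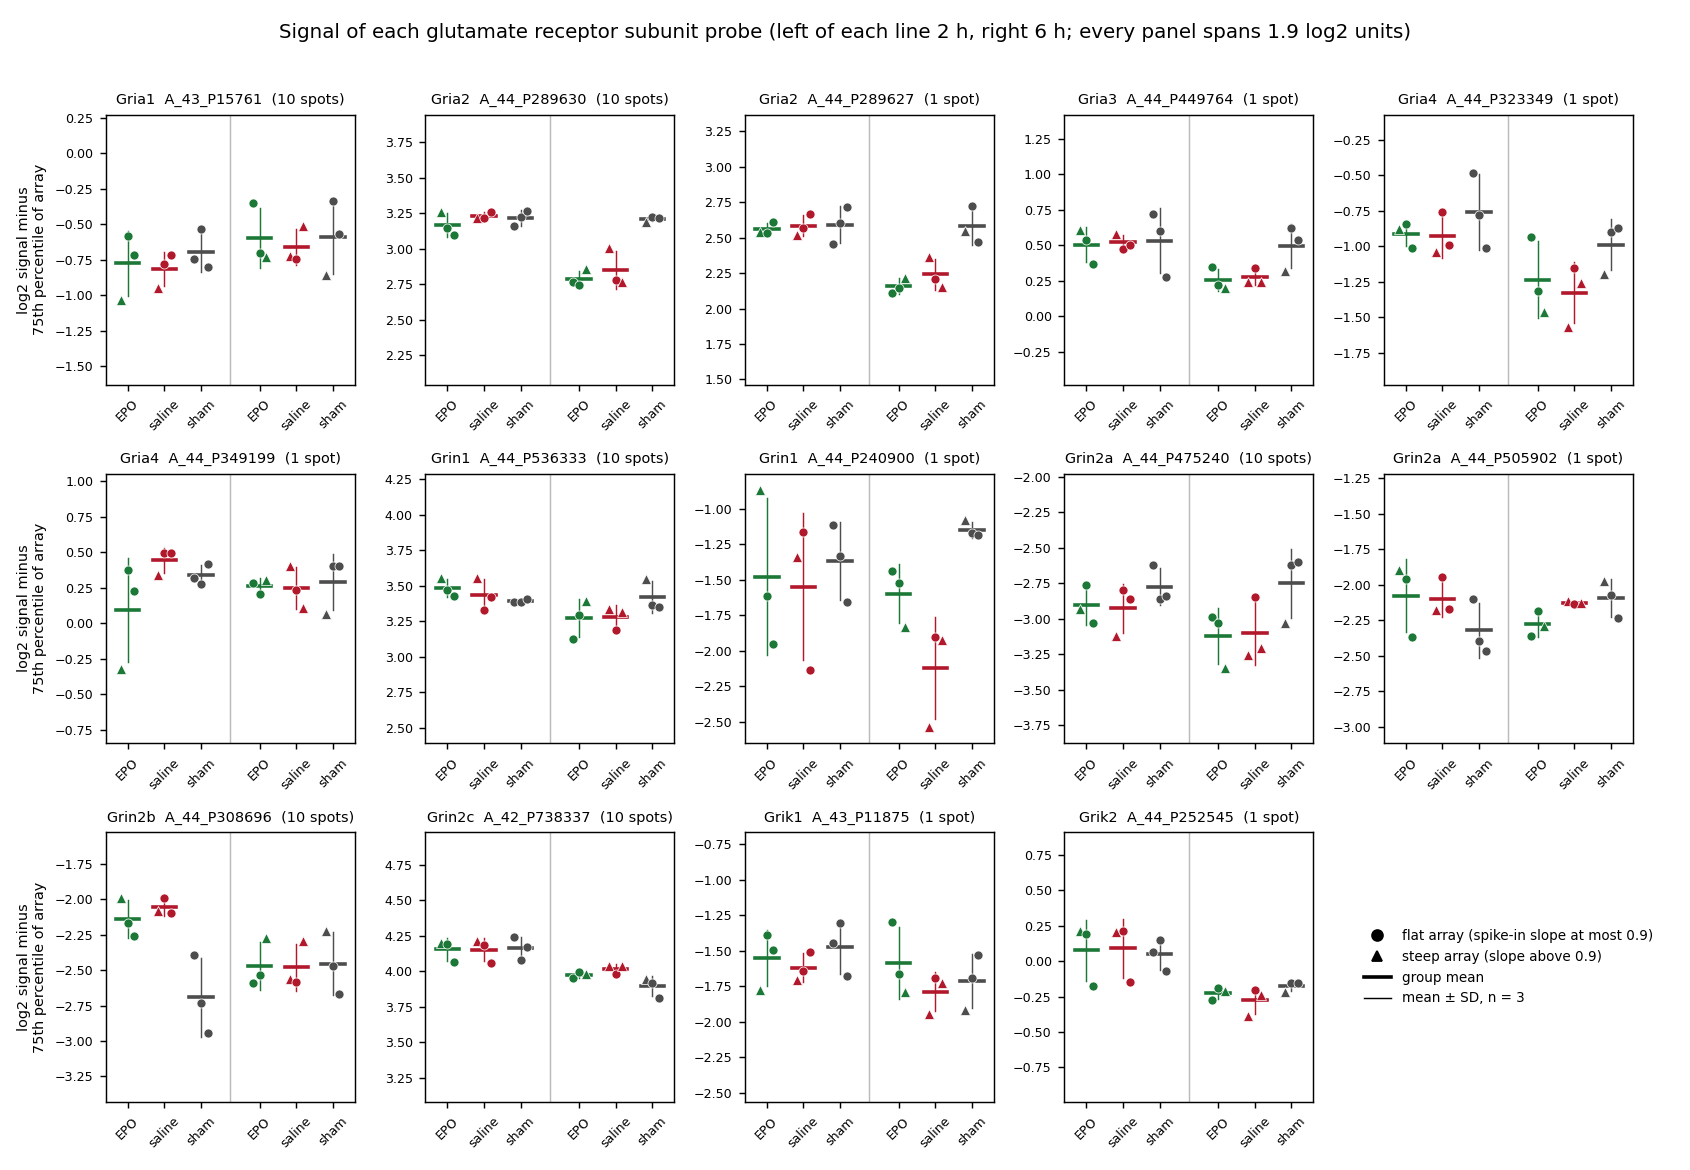
Every array's value for the 14 probes, as log2 signal minus the array's 75th percentile, in the EPO, saline and sham groups at 2 h (left of the line) and 6 h (right); circles are flat arrays, triangles steep arrays, thick bars group means and thin bars ± SD (n = 3). Both Gria2 probes sit lower in the EPO and saline groups than in sham at 6 h, and Grin2b sits higher in them than in sham at 2 h.

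Gria2 lies at chr2:168247490-168367616 (GRCr8), and both of its probes were designed for the same reference transcript. At 6 h its 10-spot probe, A_44_P289630, read 2.76, 2.74 and 2.85 with EPO, 3.01, 2.78 and 2.77 with saline, and 3.19, 3.22 and 3.22 in sham cortex. All 6 ischemic arrays were below all 3 sham arrays, and the saline array closest to sham was replicate 1, a steep array. The means were 2.79 ± 0.060 with EPO, 2.85 ± 0.14 with saline and 3.21 ± 0.018 in sham cortex (SD, n = 3 each). Gria2 RNA fell by 0.36 with saline relative to sham (SE 0.067, 95% interval -0.51 to -0.22, limma adjusted p = 0.00419), a signal that fell by 22.1%. With EPO it fell by 0.42 relative to the same sham arrays (SE 0.067, adjusted p = 0.000923), a signal that fell by 25.5%.

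The second Gria2 probe, A_44_P289627, has 1 spot per array and read 2.11, 2.15 and 2.22 with EPO, 2.36, 2.21 and 2.15 with saline, and 2.55, 2.72 and 2.47 in sham cortex at 6 h. Again no ischemic array overlapped with sham. It fell by 0.34 with saline (SE 0.083, limma adjusted p = 0.0192) and by 0.42 with EPO (SE 0.083, adjusted p = 0.0038), in each case relative to sham. The call with saline was made in 13 of 22 alternatives, with adjusted p up to 0.342, and it was lost without saline replicate 2 (adjusted p = 0.0645), without saline replicate 3 (0.0877) and without sham replicate 2 (0.0853). With EPO it was made in 19 of 22. The EPO and saline comparisons share the sham arrays and are therefore not independent of each other.

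The median of all tested probes lay at -0.13 in the saline comparison at 6 h and at 0.0030 in the EPO comparison. Among probes above background on all 18 arrays, as both Gria2 probes were, it lay at -0.086 and -0.031. Relative to the medians of all tested probes the 10-spot Gria2 probe lay at -0.24 with saline and at -0.43 with EPO. Its difference was at the 22.4th percentile of all probes with saline and at the 5.5th percentile with EPO, and its SE of 0.067 stood against a median SE of 0.133 over all probes. The call with saline was lost when arrays were centred on their median (a fall of 0.30, adjusted p = 0.108) and with no scaling (adjusted p = 0.113). It was lost too in a fit to the 6 arrays compared (adjusted p = 0.0787) and without the 6 steep arrays (a fall of 0.44, adjusted p = 0.0822). In all 22 alternatives tried the value was below 0, from -0.44 to -0.30, and with EPO the probe was called in 22 of 22. With groups that do not overlap, the sign could not turn where arrays were left out or only the filter or test changed.

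Because the saline and sham arrays did not overlap, every slide or array class must give a fall, and only its size is read. With saline against sham the 10-spot Gria2 probe differed by -0.45 on slide 3 and by -0.42 on slide 5. These 2 slides held both groups at 6 h, with a single array of each. The probe differed by -0.44 between flat arrays (1 saline, 2 sham) and by -0.30 between steep arrays (2 saline, 1 sham). The slide 3 arrays were flat and the slide 5 arrays steep, so the slide and class differences share arrays. With the array class as a block the difference was -0.38 (adjusted p = 0.00309).

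At 2 h Gria2 read 3.26, 3.15 and 3.10 with EPO, 3.22, 3.22 and 3.26 with saline, and 3.16, 3.22 and 3.27 in sham cortex on the 10-spot probe. The 3 groups overlapped. The difference was -0.048 with EPO (SE 0.067) and 0.016 with saline (SE 0.067), both against sham, and the 95% interval with saline ran from -0.13 to 0.16. The change of the difference between saline and sham between 2 h and 6 h was -0.38 (SE 0.095, limma adjusted p = 0.0755). It passed the threshold under 3 of 28 alternatives: a trended and robust prior (adjusted p = 0.0407), slide as a random block (0.0435) and without saline replicate 1 at 6 h (0.0217).

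**Figure D2:**
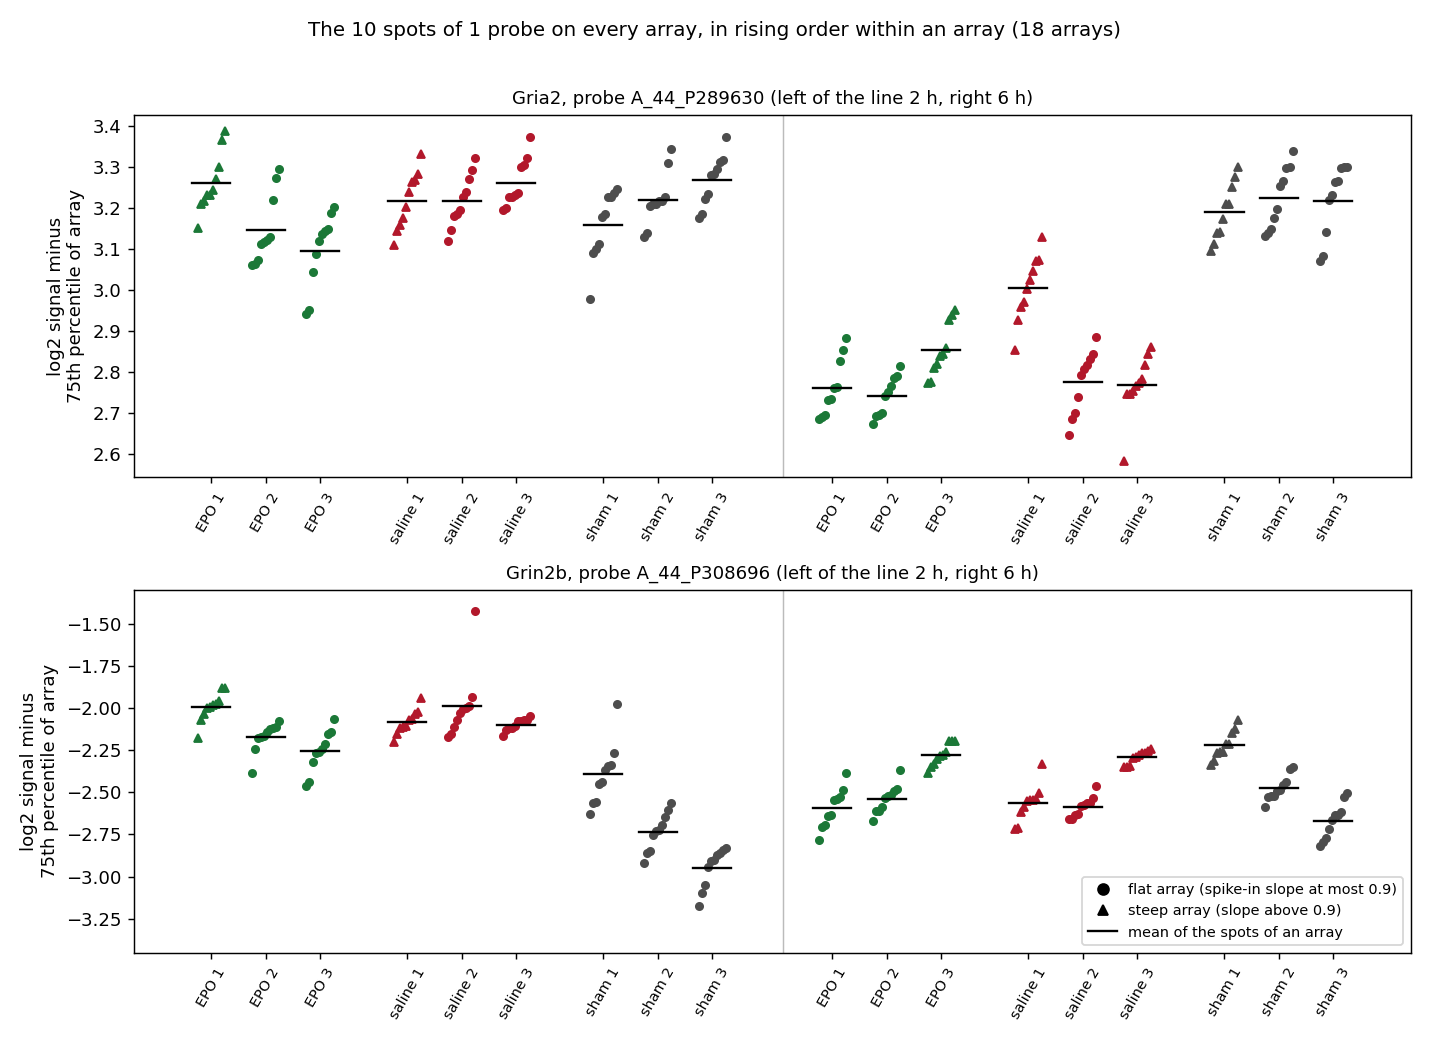
The 10 spots of the Gria2 probe A_44_P289630 (top) and of the Grin2b probe A_44_P308696 (bottom) on each of the 18 arrays, as log2 signal minus the array's 75th percentile, with a bar at the mean of an array. Spots of 1 array lie close together relative to the distance between ischemic and sham arrays for Gria2 at 6 h, and sham arrays differ among themselves for Grin2b at 2 h.

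Repeated spots show the spread within an array, which holds no labelling or hybridisation error, and a reading is the mean of its spots and so has a smaller spot error than 1 spot. For Gria2 the median SD between the 10 spots of an array was 0.071 and the SD between arrays of a group was 0.074. For Grin2b the spot SD was 0.087 and the SD between arrays 0.18, and for Grin2a they were 0.100 and 0.19. The plot of spots shows that arrays of 1 group differed more for Grin2b than single spots did.

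The other AMPA subunits passed the test at neither time. Gria1 (chr10:41710540-42030105), which encodes a subunit with a central part in synaptic plasticity, averaged -0.59 ± 0.21 with EPO, -0.66 ± 0.13 with saline and -0.59 ± 0.26 in sham cortex at 6 h (SD, n = 3 each). Its difference at 6 h was -0.0046 with EPO and -0.071 with saline against sham (SE 0.15, adjusted p = 0.994 and 0.796), and the 95% interval with saline of -0.40 to 0.25 includes changes of the size seen for Gria2. Gria3 (chrX:125103975-125369690), on the X chromosome, averaged 0.26 ± 0.079 with EPO, 0.27 ± 0.056 with saline and 0.50 ± 0.16 in sham cortex at 6 h. Its lowest sham array, a steep one at 0.32, lay among the ischemic arrays. Its differences of -0.24 with EPO and -0.22 with saline (SE 0.11) had adjusted p of 0.17 and 0.237.

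Gria4 (chr8:9845421-10320021) had 2 probes that differed in their values. At 6 h A_44_P323349 differed by -0.25 with EPO and by -0.34 with saline from sham (SE 0.16, adjusted p = 0.398 and 0.23), and A_44_P349199 by -0.026 and -0.044 (SE 0.15, adjusted p = 0.959 and 0.873). At 2 h A_44_P349199 read -0.33, 0.37 and 0.23 with EPO and 0.34, 0.49 and 0.50 with saline. This was the member with an unadjusted p under 0.05 between EPO and saline at 2 h (difference -0.35, SE 0.15, limma adjusted p = 1). Its lowest EPO array was the steep replicate 1, and without 1 replicate at a time the difference ranged from -0.49 to -0.14.

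Grin2b (chr4:170297811-170775420) was the member with the largest difference at 2 h. Its 10-spot probe, A_44_P308696, read -1.995, -2.17 and -2.26 with EPO, -2.08, -1.99 and -2.10 with saline, and -2.39, -2.74 and -2.95 in sham cortex. All 6 ischemic arrays lay above all 3 sham arrays, and the sham arrays spread more widely than the saline arrays. The means were -2.14 ± 0.13 with EPO, -2.06 ± 0.059 with saline and -2.69 ± 0.28 in sham cortex (SD, n = 3 each). The difference was 0.63 with saline against sham (SE 0.15, 95% interval 0.32 to 0.95, unadjusted p = 0.000819, limma adjusted p = 0.0591), a signal 55.2% higher. With EPO it was 0.55 against the same sham arrays (SE 0.15, adjusted p = 0.105). Neither passed the threshold. In the EPO comparison, too, 0 of 14 probes were called (1 at an unadjusted p under 0.05), against 1.33% of all probes called and 12% at an unadjusted p under 0.05.

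For Grin2b the choice of processing decided the call. The saline difference was positive in 22 of 22 alternatives, between 0.41 and 0.91, and past the threshold in 7 of them, with adjusted p from 0.0109 to 0.423. Because these groups did not overlap, the sign could not turn where arrays were left out or only the filter or test changed. Among the 7 were the percentile taken over probes rather than spots (adjusted p = 0.0428), slide as a fixed block (0.0109) and the fit without sham replicate 1 (0.78, adjusted p = 0.0173), and that same omission moved the EPO difference to 0.70 (adjusted p = 0.0363). The difference with saline was 0.31 on slide 1, 0.74 on slide 2 and 0.85 on slide 4, and 0.65 between flat arrays. These differences had to be positive as well, and only their size is read. Groups that do not overlap were found for 1 of 14 member probes with saline at 2 h, against 15.7% of all probes, and for 2 of 14 with EPO, against 20.4%. The difference of Grin2b lay at the 98.8th percentile of all probes with saline and at the 98.5th with EPO.

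At 6 h the Grin2b values were -2.59, -2.54 and -2.28 with EPO, -2.56, -2.59 and -2.29 with saline, and -2.22, -2.47 and -2.67 in sham cortex. The groups overlapped, and the highest array of each was a steep one. The difference was -0.015 with EPO and -0.027 with saline against sham (SE 0.15, adjusted p = 0.975 and 0.922). The change of the difference between saline and sham between 2 h and 6 h was -0.66 (SE 0.21, limma adjusted p = 0.171), and it passed the threshold in 1 of 28 alternatives, with slide as a fixed block (adjusted p = 0.0456).

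Grin2a (chr10:6136458-6560003) encodes the GluN2 subunit typical of the mature cortex. At 6 h its 10-spot probe, A_44_P475240, read -2.99, -3.03 and -3.35 with EPO, -3.25, -2.85 and -3.21 with saline, and -3.03, -2.62 and -2.60 in sham cortex. The lowest sham array was the steep one, and it lay among the ischemic arrays. The difference was -0.37 with EPO and -0.35 with saline (SE 0.15, limma adjusted p = 0.119 and 0.165), which missed the threshold. With the array class as a block the EPO difference kept its size of -0.37 with an adjusted p of 0.0147, and without sham replicate 1 it was -0.51 (adjusted p = 0.0431). The 1-spot probe of the same transcript, A_44_P505902, differed by -0.18 with EPO and by -0.031 with saline (SE 0.13, adjusted p = 0.424 and 0.895).

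At 2 h the 2 probes of Grin2a differed from sham in opposite directions, by -0.13 with EPO and -0.15 with saline for the 10-spot probe (SE 0.15, limma adjusted p = 0.662 and 0.664) and by 0.24 and 0.22 for the 1-spot probe (SE 0.13, adjusted p = 0.476 and 0.546).

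Signals were also subtracted within an array, which is untouched by scaling. The contrasts, Grin2b minus each Grin2a probe and Gria2 minus Gria1, Gria3 and Grin1, were chosen after the values were seen and are given with no test, and only their change between groups is read. At 2 h Grin2b minus the 10-spot Grin2a probe was 0.93, 0.59 and 0.77 with EPO, 1.04, 0.81 and 0.76 with saline, and 0.23, 0.12 and -0.11 in sham cortex. The means differed by 0.68 with EPO and by 0.79 with saline from sham. With the 1-spot Grin2a probe in its place the means differed by 0.31 with EPO and by 0.41 with saline, from values of -0.21 to 0.11 with EPO, -0.043 to 0.093 with saline and -0.48 to -0.29 in sham cortex. With either probe no ischemic array overlapped with sham at 2 h, and how often other probe pairs do so was not counted. Steep arrays read lower for the 10-spot Grin2a probe and higher for Grin2b, which this contrast adds up. With that probe the steep array was the highest of each ischemic group at 2 h, and no sham array was steep. The flat ischemic arrays lay at 0.59 to 0.81, and the sham arrays at 0.23 or below. At 6 h the contrast with the 10-spot probe was 0.39, 0.50 and 1.07 with EPO, 0.69, 0.26 and 0.92 with saline, and 0.81, 0.15 and -0.065 in sham cortex. All groups overlapped, and the steep arrays were the highest of each group.

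Gria2 minus Grin1 (10-spot probes) at 6 h was -0.55 to -0.37 with EPO, -0.55 to -0.33 with saline and -0.36 to -0.13 in sham cortex, so the saline arrays overlapped with sham and the EPO arrays lay just below it. The overlap came from the steep sham array at -0.36, and the flat sham arrays read -0.14 and -0.13. With the groups accounted for, steep arrays read 0.16 higher for this Grin1 probe and 0.060 higher for this Gria2 probe. The means differed from sham by -0.27 with EPO and by -0.22 with saline. Gria2 minus Gria1 and Gria2 minus Gria3 overlapped with sham in both ischemic groups at 6 h, with mean differences of -0.29 and -0.14 with saline.

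**Figure D3:**
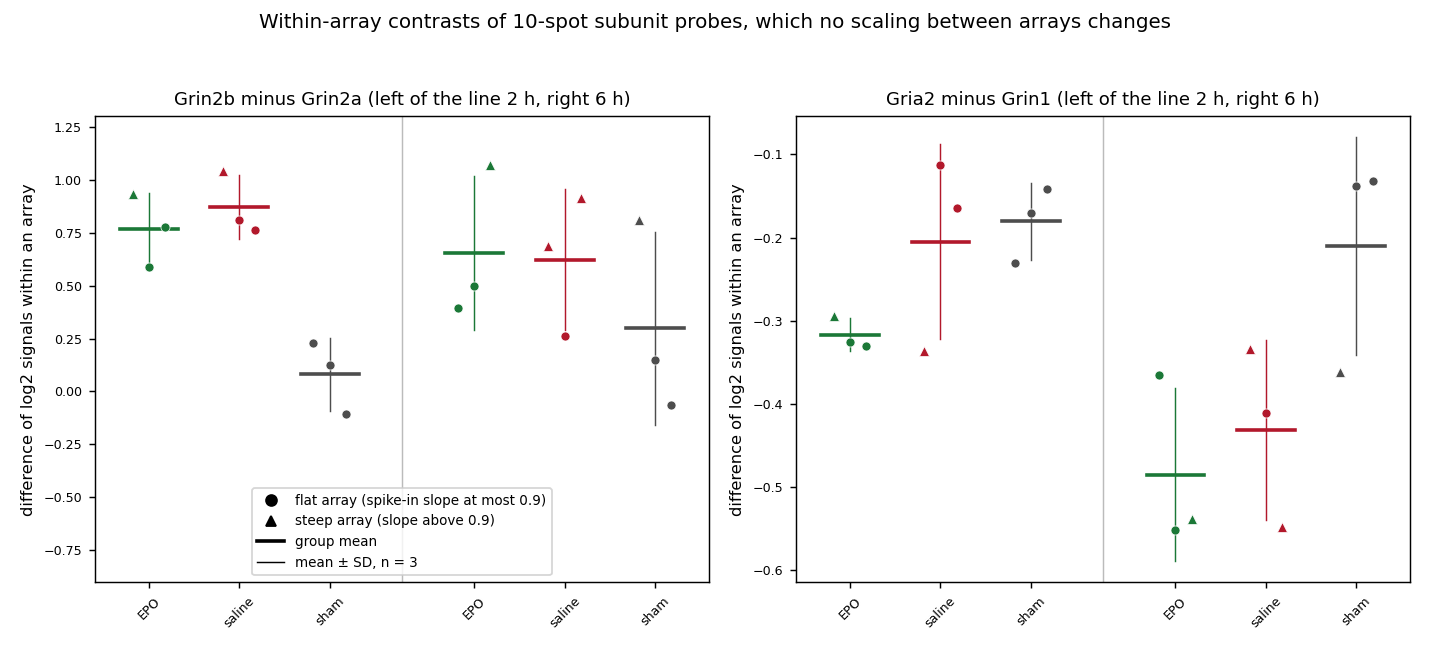
Differences of log2 signal within an array for Grin2b minus Grin2a and for Gria2 minus Grin1 (10-spot probes) in the EPO, saline and sham groups at 2 h and 6 h; points are arrays, thick bars means and thin bars ± SD (n = 3). Grin2b minus Grin2a is above sham on all 6 ischemic arrays at 2 h, where the triangle is highest in each ischemic group and sham has none. At 6 h it follows the array class, with triangles highest in each group. Gria2 minus Grin1 overlaps between saline and sham at 6 h only through the steep sham array.

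Grin1 (chr3:28501836-28528754), the subunit that every NMDA receptor needs, gave 2 readings that disagree in size. At 6 h its 10-spot probe, A_44_P536333, read 3.13, 3.29 and 3.39 with EPO, 3.34, 3.19 and 3.32 with saline, and 3.55, 3.36 and 3.35 in sham cortex. The 3 saline arrays lay below the 3 sham arrays by a narrow margin, and the EPO arrays overlapped with sham. The difference was -0.15 with EPO and -0.14 with saline (SE 0.082, limma adjusted p = 0.274 and 0.334). With the array class as a block the saline difference was -0.19 (adjusted p = 0.0341).

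The other Grin1 probe, A_44_P240900, has 1 spot and was designed for a sequence that the rat gene table does not list, so its gene is the name in the array file. At 6 h it read -1.44, -1.52 and -1.83 with EPO, -2.54, -1.90 and -1.93 with saline, and -1.08, -1.17 and -1.18 in sham cortex. No ischemic array overlapped with sham, and the saline arrays were below the EPO arrays. It fell by 0.97 with saline relative to sham (SE 0.29, 95% interval -1.60 to -0.35, limma adjusted p = 0.0465) and differed by -0.45 with EPO (SE 0.29, adjusted p = 0.375). The call was made in 8 of 22 alternatives and was lost without any 1 of the 6 arrays compared, with adjusted p from 0.0688 to 0.174 in those fits. Between EPO and saline at 6 h it differed by 0.52 (SE 0.29, adjusted p = 0.778). At 2 h its arrays spread over more than 1 log2 unit in the EPO group, from -1.95 to -0.87.

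The stretch from 250 bases before to 50 after the start of Grin1, from RefSeq's table (GRCr8), is shown because Grin1 had a called probe, with its GC box, the letters GGGCGG bound by Sp1-type factors, in capitals. It lies at chr3:28528705-28529004 on the minus strand and is written 5′ to 3′.
Grin1: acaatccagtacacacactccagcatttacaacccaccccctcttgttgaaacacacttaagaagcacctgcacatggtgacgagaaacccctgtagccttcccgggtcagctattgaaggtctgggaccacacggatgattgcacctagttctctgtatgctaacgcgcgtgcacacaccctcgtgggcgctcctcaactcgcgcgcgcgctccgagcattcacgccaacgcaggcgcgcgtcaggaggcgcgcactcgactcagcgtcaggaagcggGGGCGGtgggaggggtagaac
A promoter entry was found for 5 of 10 members: Gria4, Grin1, Grin2c, Grik1 and Grik2. Both strands were searched for GGGCGG, TTCAGCACC from the left part of the RE1 element, and the cyclic AMP response element TGACGTCA, and no match overlapped another. Of these 5 windows, 1 held GGGCGG, and no other motif was found, whereas 33.1% of 33469 rat promoter windows hold GGGCGG, 0.356% TTCAGCACC and 1.83% TGACGTCA. The windows were 50.3% to 60.3% G and C, against a median of 51.7% for all windows.

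Grin2c (chr10:100987410-101006064) encodes a GluN2 subunit known mainly from the cerebellum and from glia and some interneurons of the forebrain. Its 10-spot probe varied the least of the 14 over all arrays, from 3.81 to 4.24. At 6 h it read 3.952, 3.995 and 3.979 with EPO, 4.04, 3.98 and 4.04 with saline, and 3.95, 3.92 and 3.81 in sham cortex. Neither treatment group overlapped with sham, though with EPO the margin was narrow (3.952 against 3.947). Of all probes 31% did not overlap with EPO and 32.3% with saline. The differences of 0.082 with EPO and 0.13 with saline (SE 0.062) missed the threshold, with limma adjusted p of 0.477 and 0.238. In sham cortex alone the probe read 3.95, 3.92 and 3.81 at 6 h and 4.24, 4.08 and 4.17 at 2 h. These did not overlap, and the difference of -0.27 (SE 0.062, adjusted p = 0.08) passed the threshold in 2 of 22 alternatives, a trended and robust prior (adjusted p = 0.0395) and slide as a random block (0.0447). Between sham groups 0 of 14 probes were called (1 at an unadjusted p under 0.05) and 0.482% of all probes were, with 9.03% at an unadjusted p under 0.05.

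The kainate subunits were called in no comparison. Grik1 (chr11:40655974-41056966) averaged -1.59 ± 0.26 with EPO, -1.79 ± 0.14 with saline and -1.71 ± 0.19 in sham cortex at 6 h (SD, n = 3 each). Grik2 (chr20:53717564-54415283) averaged -0.23 ± 0.043 with EPO, -0.28 ± 0.096 with saline and -0.18 ± 0.036 in sham cortex at 6 h. Grik1 differed by 0.13 with EPO and by -0.076 with saline (SE 0.15), and Grik2 by -0.048 and -0.097 (SE 0.11), with adjusted p from 0.658 to 0.909. In sham cortex Grik2 was lower at 6 h than at 2 h on every array, with a difference of -0.23 (SE 0.11, limma adjusted p = 0.593). Grin2c and Grik2 were the 2 of 14 probes whose sham groups did not overlap between the times, against 19.2% of all probes.

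**Figure D4:**
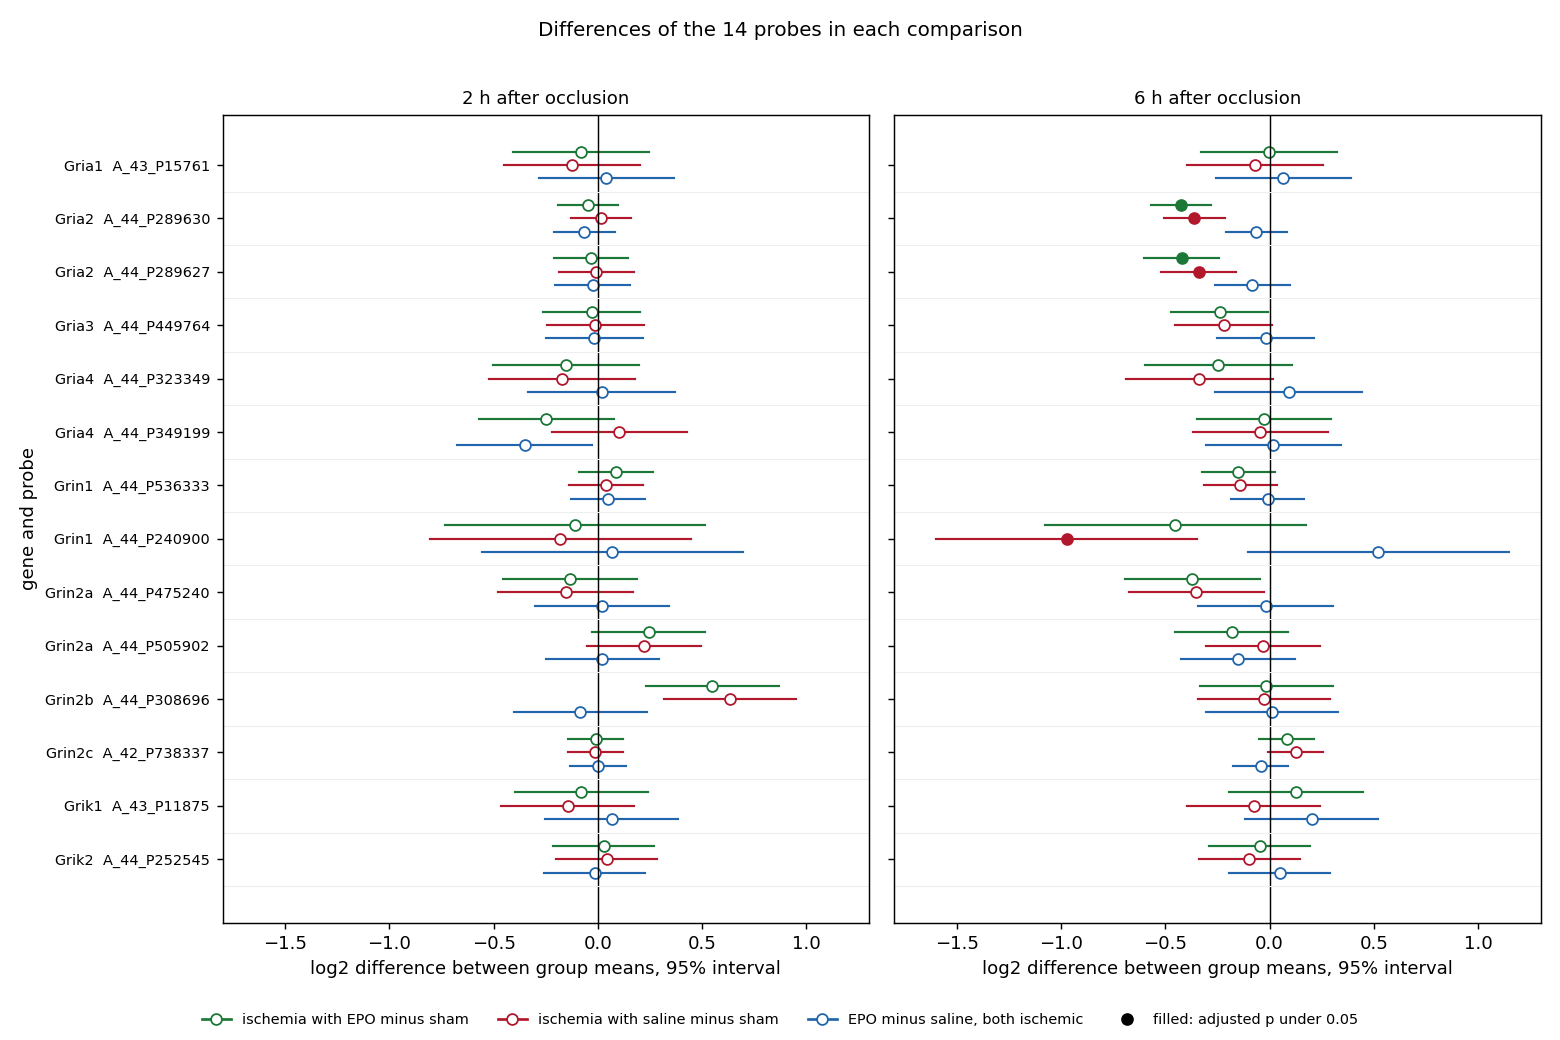
Differences between group means on the log2 scale with 95% intervals for the 14 probes at 2 h and 6 h, for ischemia with EPO minus sham, ischemia with saline minus sham and EPO minus saline; filled points have an adjusted p under 0.05. The filled points are the 2 Gria2 probes with EPO and with saline and 1 Grin1 probe with saline, all at 6 h and all below 0.

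No subunit was called between EPO and saline. At 6 h the differences between EPO and saline ranged from -0.15 (Grin2a, A_44_P505902) to 0.52 (Grin1, A_44_P240900), with adjusted p from 0.778 to 0.981. For the 10-spot Gria2 probe the difference was -0.064 (SE 0.067) with a 95% interval of -0.21 to 0.082, and without saline replicate 1 it was 0.014. For Grin2b at 2 h it was -0.084 (SE 0.15), with an interval of -0.40 to 0.23. Groups did not overlap for 0 of 14 probes at 2 h and 2 of 14 at 6 h, against 4.2% and 8.69% of all probes. The change of the EPO effect between 2 h and 6 h was called for 0 of 14 probes (0 at an unadjusted p under 0.05, against 2.33% of all probes) and 0% of all probes, and the change of the ischemia effect for 0 of 14 (3 at an unadjusted p under 0.05, against 12.1%), beside 1.43% of all probes.

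With EPO against sham at 6 h, 2 of 14 probes were called, the 2 Gria2 probes, both lower. Of all probes 16.1% were called in this comparison and 9.59% were called lower. Groups did not overlap for 4 of 14 probes with EPO and 5 of 14 with saline at 6 h, against 31% and 32.3% of all probes. Over the 14 probes the median difference with saline at 6 h was -0.12, with 13 of 14 below 0, beside a median of -0.13 and 69.1% below 0 among all probes. With EPO the median was -0.17, with 12 of 14 below 0, beside a median of 0.0030 and 49.5% below 0 among all probes. Among probes above background on all 18 arrays, as the 14 were, the median was -0.086 with saline and -0.031 with EPO.

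**Figure D5:**
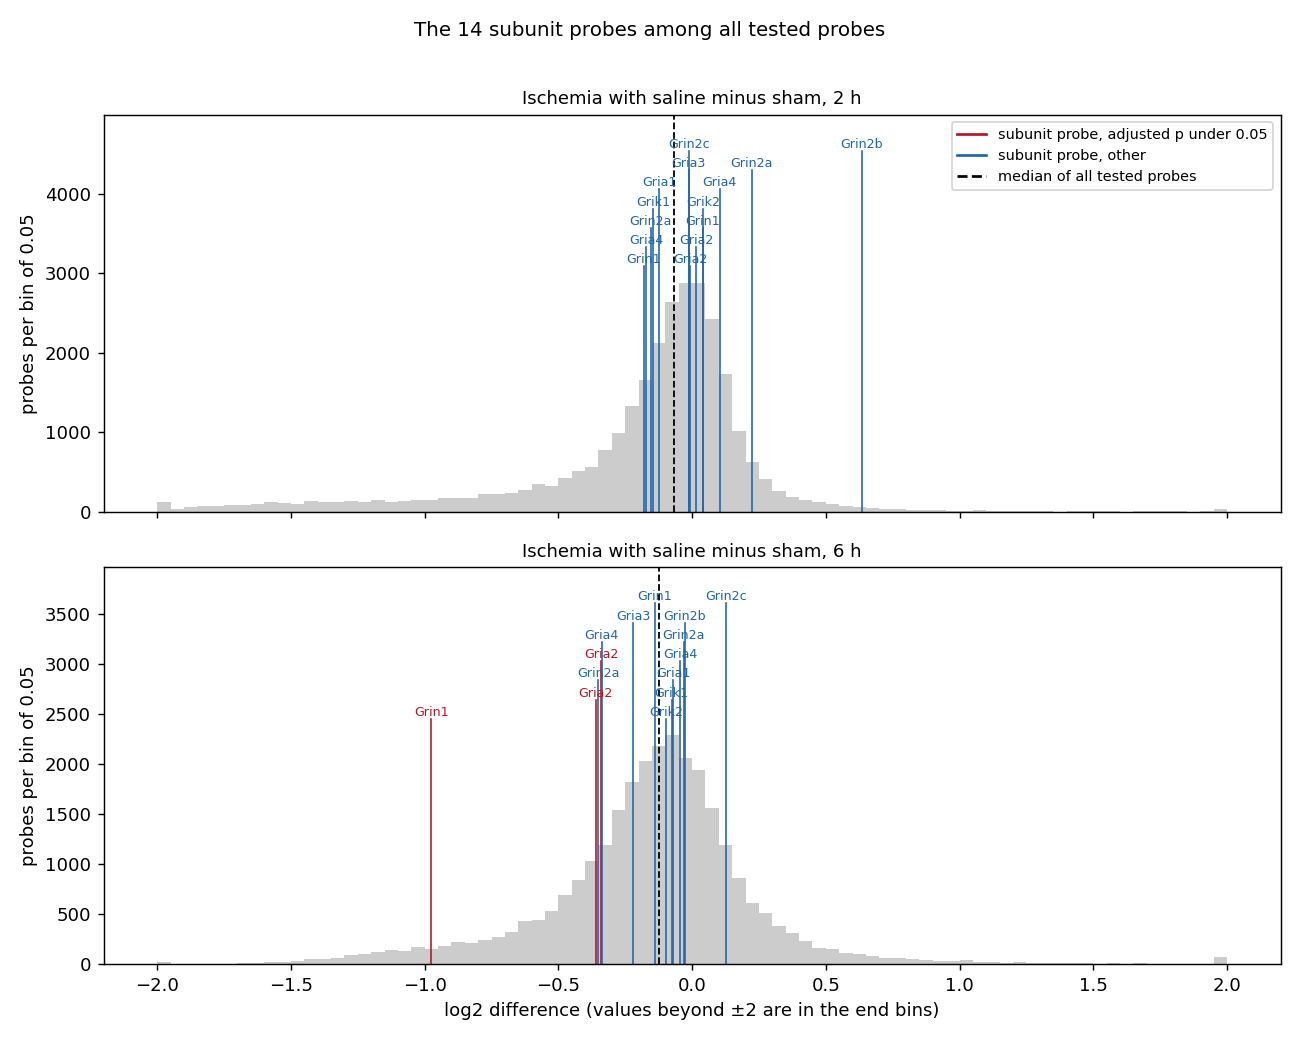
Histogram of the differences (saline-treated ischemia minus sham, log2) of all 28634 tested probes at 2 h and 6 h, with the 14 subunit probes as lines and the median of all probes dashed. At 2 h Grin2b stands in the upper tail at 0.63, and at 6 h the median is -0.13, with 1 Grin1 probe furthest from it at -0.97 and the Gria2 probes (-0.36 and -0.34), the 10-spot Grin2a probe (-0.35) and 1 Gria4 probe (-0.34) also below it.

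Markers of other neurons also differed between ischemic and sham samples. The summed signal of 10 striatal neuron genes, each in multiples of the array's 75th percentile, was 31 to 34.9 with EPO, 26.3 to 36.4 with saline and 16.9 to 28.7 in sham cortex at 2 h. At 6 h it was 34.9 to 44.5 with EPO, 32 to 38.3 with saline and 20.8 to 27.5 in sham cortex. At 6 h 7 of these 10 genes were called higher with EPO and 2 with saline, where 6.48% and 4.83% of all genes were, among them Adora2a, an adenosine receptor (0.87 and 0.84). The median difference of the 10 genes from sham was 0.69 with EPO and 0.62 with saline. Between EPO and saline it was 0.055, with 0 of the 10 called. The 10 pan-neuronal genes summed to 218 to 244 with EPO, 237 to 240 with saline and 254 to 270 in sham cortex at 6 h, and 3 were called lower with EPO and 2 with saline, where 9.89% and 6.4% of all genes were, such as the synaptic vesicle gene Syt1 (-0.37 and -0.26). Of 8 cortical excitatory neuron genes 2 were called lower with each, beside the same shares of all genes, Neurod6 (-1.05 and -0.81) and Rasgrf2 (-0.65 and -0.68), and their sum was 9.55 to 11.8 with EPO, 10.7 to 11.2 with saline and 12 to 13.1 in sham cortex. At 6 h all 3 sums were outside the sham range in both ischemic groups, as Gria2 was. So was the sum of 8 interneuron genes, above sham (92.2 to 93.1 with EPO, 92.7 to 101 with saline, 82.2 to 90.4 in sham cortex). The sum of 2 oligodendrocyte precursor genes lay below sham (8.38 to 9.85, 9.04 to 9.69 and 10.8 to 11.6). At 2 h the striatal sum overlapped with sham on saline arrays and not on EPO arrays, while 0 of its 10 genes were called (1% of all genes were called higher with EPO and 0.906% with saline). At that time the sum of 8 oligodendrocyte genes was above sham in both ischemic groups. It was 269 to 300 with EPO, 285 to 296 with saline and 259 to 266 in sham cortex. So was that of 8 microglial genes (21.1 to 21.9, 21.4 to 24.2 and 20.1 to 20.3). Of these genes 1 microglial gene was called higher at 2 h, with saline. How often sums of other genes lie outside the sham range was not counted at either time. The part of these cell types in the Gria2 and Grin2b differences was not tested. In bulk tissue, fewer cells of a type and less RNA per cell cannot be told apart.

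Of 10 genes that define cortical excitatory neurons 8 were tested, the vesicular glutamate transporter gene Slc17a7 among them. Nrgn was above background on 17 of 18 arrays, had no usable spot on the remaining array and was not tested. Of 6 genes listed for cerebellar granule neurons 3 were tested. Cbln1 and Cbln3 had no probe under these symbols, and Gabra6 was above background on 4 arrays and was not tested. Which cells of the cortex samples gave the signal of the tested 3 was not determined. At 6 h 2 of the 3 were called lower with EPO, Neurod1 (-1.25) and Etv1 (-0.28), and 1 with saline, Neurod1 (-1.04), and their sum was 7.21 to 9.57 with EPO, 8.28 to 8.42 with saline and 9.97 to 10.7 in sham cortex. Of 8 endothelial genes 4 were called lower and 1 higher with EPO, and 4 lower with saline at 6 h. Of 8 microglial genes 2 were called lower and 2 higher with EPO, and 2 lower and 1 higher with saline. Of all genes 9.89% were lower and 6.48% higher with EPO, and 6.4% lower and 4.83% higher with saline.

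Proteins that travel with these receptors were read from lists. Of 11 auxiliary subunit genes measured, 2 fell at 6 h and none rose, with EPO and with saline, where 9.89% of all genes were lower with EPO and 6.4% with saline (6.48% and 4.83% were higher). They were Cacng2, which encodes the AMPA receptor partner stargazin (-0.30 with EPO and -0.32 with saline), and Cpt1c, which binds AMPA receptors in the endoplasmic reticulum (-0.29 and -0.32). The list's median difference with saline was -0.27, beside -0.13 for all genes, and with EPO 0.014 beside 0.0019. Of 24 scaffold and trafficking genes, 3 rose and 3 fell with EPO and 2 rose and 1 fell with saline at 6 h.

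The largest of these was Nptx2, a secreted pentraxin that gathers AMPA receptors at synapses. It rose by 2.53 with EPO (SE 0.24, adjusted p = 1.74e-05) and by 1.78 with saline (SE 0.24, adjusted p = 0.00045) at 6 h, each relative to sham. At 2 h it rose by 1.09 with EPO (adjusted p = 0.0441), the 1 gene of its list called at that time. Dlg2, a postsynaptic density scaffold, rose by 0.45 with EPO and 0.35 with saline at 6 h, and Shank2, a scaffold of the same density, fell by 0.33 in both.

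The remaining lists held few calls. None of the subunit genes Grin2d, Grin3a, Grin3b, Grik3, Grik4, Grik5 and Grid1, of 2 RNA editing enzymes or of 8 genes of glutamate transport and metabolism was called at either time. Of 8 metabotropic receptors 2 fell with EPO at 6 h, against 9.89% of all genes, Grm6 (-0.92, SE 0.27, adjusted p = 0.0331) and Grm8 (-0.31, SE 0.097, adjusted p = 0.0427), and none was called with saline. Of 7 regulators known to act at glutamate receptor promoters, 1 was called, where 6.48% of all genes were higher with EPO at 6 h, Rcor1, a corepressor that partners REST, which rose by 0.57 with EPO at 6 h (SE 0.13, adjusted p = 0.00973). Rest itself was above background on 1 array and was not tested.

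For the 3 members with the smallest p at 6 h with saline, each by its probe of highest mean signal, genes with the most similar profile over the 18 arrays were looked up, after the mean of each array class was removed. Gria2 correlated most with Bmyc (r = 0.959), Mrpl36 (0.955) and Zfp445 (0.955). Gria3 correlated most with Pias1 (0.864), Kazald1 (0.853) and Cxxc4 (0.825), and Grin2c with the muscarinic receptor gene Chrm4 (0.9), the kinase gene Sgk1 (0.892) and Efhd1 (0.89). Without that removal r was 0.828 to 0.959 for these 9 pairs. The arrays share groups, slides and scaling, and the values describe these 18 arrays.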

How the data were processed

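Total RNA of 18 samples was labelled with Cy3 and hybridised to 1-colour Agilent arrays, per the labels' protocols. Raw files were written by Agilent Feature Extraction 9.1.1.1, per the submitters' processing notes. They hold a background-subtracted processed intensity per spot, per the file headers (43379 spots and 1639 control spots). The authors' deposited value table holds log2 intensity, checked to equal the mean log2 processed intensity without scaling between arrays (largest difference 5.33e-14).

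Spots of a probe were averaged on the log2 scale without outlier spots, and each array was scaled by taking off the 75th percentile of its non-control spots. A probe entered the test where all 3 arrays of some group read it well above background and every array had a usable spot, which left 28634. On some array 345 probes had no usable spot. Groups came from the labels. The 18 arrays were fitted as 6 group means in R 4.3.3, using limma 3.58.1 for contrasts (12 residual degrees of freedom, two-sided, Benjamini-Hochberg over all probes at 0.05, intervals at 95%), and the steps were tested on simulated data. Genes other than the members were read by their brightest probe (24279 names). The number of arrays limits the precision, and arrays give no count-based depth.

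Members and lists were chosen with earlier results of these data known. By rule all member probes are named, up to 4 genes of smallest p per list and comparison, and 3 genes of highest correlation for the 3 members of smallest p at 6 h, taken among probes with a symbol in RefSeq's rat table (GRCr8), the source of coordinates and promoters. The markers named were chosen in the same way.

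Replicate numbers were checked for pairing. Every same-number pair correlated above 0.1 across probes only between EPO and saline at 2 h (0.887, 0.654 and 0.635), where replicate 1 was steep in both groups. A replicate block called 0 member probes there, as without it. Alternatives covered background correction, scaling, probe filter, slide, array class, fit and left-out replicates, and 2 scalings were added after seeing the data, the 75th percentile over probes and the array median over tested probes.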

Additional observations from a re-analysis of the deposited data

Results flagged for a closer look

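For 3 probes every array of 1 ischemic group, either saline or EPO, lay on one side of the sham mean of its time at 2 h and on the other at 6 h. The 10-spot Gria2 probe had a mean difference between saline-treated ischemic and sham cortex of 0.0164 at 2 h and -0.361 at 6 h. The test of this change gave a limma adjusted p of 0.0755, which missed the threshold. The 1-spot Grin2a probe A_44_P505902 differed by 0.222 at 2 h and by -0.0312 at 6 h with saline (adjusted p of the change 0.699). The 10-spot Grin1 probe A_44_P536333 differed by 0.0887 at 2 h and by -0.15 at 6 h between EPO-treated ischemic and sham cortex, and that change was not tested.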

How the results depend on the processing

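No member value that had been called changed sign in any alternative. The groups of these calls did not overlap, so the sign could not turn where arrays were left out or only the filter or test changed. Over the named probes and all alternatives, 2893 results kept their side of the threshold, 17 passed it newly and 30 lost it. Some of those that moved lay near the threshold of 0.05. Most results had not been called, so the 2893 do not measure how stable the calls were. All 30 losses were among the member calls at 6 h. With saline, Gria2 probe A_44_P289630 lost its call in 4 of 22 alternatives, A_44_P289627 in 9 and Grin1 probe A_44_P240900 in 14. With EPO the same Gria2 probes lost it in 0 and 3 of 22. The count of member probes called lower with saline at 6 h was 3, and it was 0 with no scaling, with the 6 arrays compared alone, without the 6 steep arrays and with centring on the array median, 1 at an adjusted p of 0.01, 1 to 2 when 1 array was left out, 2 with normexp, quantile normalization, no probe filter and the percentile over probes, and 4 with the array class as a block (a Grin1 probe added). At 2 h the saline count was 0, and it was 1 with no scaling, with probes above background on all 18 arrays, with slide as a fixed or a random block, with the percentile over probes and with median centring, and 0 to 1 when 1 array was left out; the 1 was Grin2b each time. With EPO against sham the count at 6 h was 2, and it was 1 with no scaling, with the arrays compared alone and without the steep arrays, 3 with the array class as a block and 2 to 3 when 1 array was left out (a Grin2a probe added), and at 2 h it was 0 to 1 when 1 array was left out. Between sham groups the count was 0, and 1 with a trended and robust prior and with slide as a random block. For the change of the ischemia effect with time it was 0, and 1 with those same settings and with slide as a fixed block, and 0 to 1 when 1 array was left out. Blocking on the replicate number (replicate block) gave 0 member probes between EPO and saline at 2 h, 3 with saline and 2 with EPO at 6 h, as without it, but among the lists it lost Nptx2 at 2 h and both metabotropic receptors with EPO (0 called each). Over all probes the calls at 6 h numbered 3164 with saline (202 to 4195 over all settings) and 4615 with EPO (1168 to 5549), at 2 h 356 with saline (26 to 634) and 382 with EPO (3 to 448), 138 between sham groups (0 to 214) and 410 for the ischemia effect with time (0 to 756), with 202 for saline at 6 h without the steep arrays. The alternatives that use fewer arrays have fewer residual degrees of freedom; for the others the cause of a lost or gained call was not tested. All member probes were above background on every array, and those with 1 spot have no repeat within an array.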
